A study of Homo sapiens with 10 samples.

Results

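The DDX and DHX genes encode the DEAD-box and DEAH-box families of RNA helicases. They were taken as every transcript whose accession maps to a symbol made of DDX or DHX, a number and at most 1 further letter. The rule found 49 genes, 33 named DDX and 16 named DHX, among 24994 genes and unnamed transcripts in the files. Each was represented by 1 transcript, of 1534 to 6754 nt (median 3625 nt). The eIF4A genes, SNRNP200 and RIGI (formerly DDX58) are helicases with other symbols and are described only as neighbours. DDX12P, DDX19A, DDX41, DDX49, DDX50 and DDX52 were not analysed here.

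Polyadenylated RNA was sequenced from HEK293, a transformed line from human embryonic kidney that is widely used for studies of RNA-binding proteins. The conditions are those used before crosslinking and immunoprecipitation of RNA-binding proteins (CLIP). Of 4 groups with 2 libraries each, 1 was left untreated and 1 received only 4-thiouridine (4SU), a uridine analogue that cells build into new RNA, at 1 mM for 12 to 14 h. A further group received the same 4SU and then 365 nm ultraviolet light, and the last received 254 nm light without 4SU. Transfection with an siRNA to HuR, an RNA-binding protein encoded by ELAVL1, gave 1 library and transfection with an siRNA to GFP gave another. Both had neither 4SU nor light. The labels do not say whether libraries A and B of a group are separate cultures. The p-values cover only the spread between such libraries, largely pooled over genes and the 4 groups, and this spread may be technical.

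RNA helicases of these families use ATP to pry apart short RNA duplexes or to strip proteins from RNA. DEAD-box proteins act locally on a few base pairs and many serve as ATP-controlled clamps, whereas DEAH-box proteins pull on single-stranded RNA and are commonly switched on by G-patch partner proteins. Members act at nearly every step of an mRNA's life, including transcription, splicing, export, translation, storage and decay, and many build the ribosome in the nucleolus. Motif II, which gives the families their names, binds the magnesium ion and ATP.

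Motif II codons were read from the GENCODE 29 transcripts that carry the members' RefSeq accessions. They were found in 48 of 49 members: 27 carry DEAD, 9 DEAH, 6 DEVH, 2 DECD (DDX39A and DDX39B), 2 DEIH (DHX9 and DHX36), 1 DEVD (DDX21) and 1 DECH (DHX58). None was found in DHX32. A coding stretch of 36 bases is shown 5′ to 3′ for the members on which the results below turn, with the motif II codons in capitals, so that the variants of the motif can be set side by side.
DHX9 (DEIH): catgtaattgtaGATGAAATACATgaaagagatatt
DDX46 (DEAD): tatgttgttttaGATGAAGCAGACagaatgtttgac
DDX1 (DEAD): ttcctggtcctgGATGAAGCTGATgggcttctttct
DDX28 (DEAD): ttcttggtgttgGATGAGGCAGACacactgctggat
DDX5 (DEAD): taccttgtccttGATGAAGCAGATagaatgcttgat
DDX17 (DEAD): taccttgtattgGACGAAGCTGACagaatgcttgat
DDX39A (DECD): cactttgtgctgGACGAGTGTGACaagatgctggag
DDX39B (DECD): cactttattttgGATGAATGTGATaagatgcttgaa
DDX21 (DEVD): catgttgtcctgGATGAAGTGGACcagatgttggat
DHX40 (DEAH): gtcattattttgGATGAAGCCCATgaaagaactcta
DHX57 (DEVH): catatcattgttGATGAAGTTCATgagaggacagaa

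The 8 libraries of the replicated groups held 2238569 to 3099769 tags, and the GFP and HuR siRNA libraries held 8688262 and 9016803. The crosslinked libraries stood apart from the others. Their tag-weighted median transcript length was 1147 to 1534 nt, against 2373 to 3029 nt in the 4 libraries without crosslinking. Of 6 HEK293 markers all 6 were in the files, and their summed level ranged from 137 to 2873 tags per 1000000, lowest in 365 nm library A. Most of that sum came from NEFL and IRS4. NEFM was at 0.416 to 9.78, PAX2 at 0 to 6.22 and LHX1 at 0 to 2.65. The blood markers found, 3 of 4, summed to 9.75 to 60.4 tags per 1000000, nearly all from CD68. The 1 hepatocyte marker found, of 3, was at 0 to 0.447, and the 5 fibroblast or endothelial markers summed to 12.5 to 35.5 tags per 1000000. Labels of the siRNA pair were checked on ELAVL1, which had 1905 tags with the GFP siRNA and 638 with the HuR siRNA.

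The helicases together took 0.749% and 1.05% of all tags in untreated libraries A and B, and 0.669% and 0.838% with 4SU alone. The share was 0.132% and 0.247% in the 365 nm libraries with 4SU and 0.398% and 0.361% in the 254 nm libraries. Each crosslinked library thus lay below all 4 libraries without crosslinking. Normalisation by TMM, which aims to set the bulk of genes level between libraries, took out most of such a shift but not all. At 365 nm the median log2 fold change of all 13731 tested genes was -0.50 with TMM and -2.40 with library totals, and at 254 nm it was -0.14 and -0.998. Every fold change below is therefore relative to the other mRNAs.

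In untreated cells the helicase mRNA with the highest level per length was DDX39B, an ATPase that loads export factors during splicing. Levels per length are in RPKM, here tags per kilobase of transcript per 1000000 tags with TMM factors. DDX39B stood at 233 and 271 RPKM in the 2 untreated libraries. DDX5, a transcriptional coregulator and splicing helicase, followed at 159 and 249. DHX9, which unwinds RNA and DNA during transcription and on structured viral and cellular RNA, stood at 99.5 and 150. DDX24, a nucleolar helicase, had 95.9 and 149, and DDX3X, which helps initiate translation on structured leaders, had 70.8 and 165. The libraries of neighbours in this order overlapped, except that both DDX5 values lay above both DHX9 values.

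The order changed in the crosslinked groups. DDX39B stayed first, at 312 and 482 in the 365 nm libraries and at 276 and 361 in the 254 nm libraries. Its close relative DDX39A, whose coding sequence is 80.0% identical, was at rank 6 in untreated cells and rank 2 in both crosslinked groups. With 4SU alone, the control of the 365 nm group, DDX39A was already at rank 3. DDX5 was at rank 2 in untreated cells and rank 5 after 254 nm. It was at rank 4 with 4SU alone and rank 8 after 4SU with 365 nm.

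Of the 49 members, 41 had enough tags to be tested. The 8 others, which had at most 10 tags in any of the 8 libraries, were the germline helicases DDX4, DDX43 and DDX53, the testis-enriched DDX25, the interferon-linked DDX60, DDX60L and DHX58, and DDX3Y. DHX58 (LGP2), a regulator of the viral RNA sensors, had 0.779 and 0.913 RPKM in untreated cells. DDX60 had 0.149 and 0.345. Tags of 17 tested members were split between transcripts in at least 1 library, and their values are less certain. Among those named below, these are DDX3X, DDX6, DDX10, DDX11, DDX17, DDX23, DDX31, DDX46, DDX51, DDX55, DDX59, DHX15, DHX16, DHX33, DHX37 and DHX40.

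What 4SU did to these mRNAs without light was asked first. DDX1, which works with the tRNA ligase complex, and DHX29, which helps the small ribosomal subunit scan structured leaders, were lower with 4SU. No helicase was higher. DDX1 stood at 132 and 242 normalised tags per 1000000 (CPM, with TMM factors) in untreated libraries A and B and at 62.0 and 64.3 CPM with 4SU. DHX29 stood at 38.4 and 70.3 CPM untreated and at 18.2 and 18.3 CPM with 4SU. For both genes the 4SU libraries lay close together and below both untreated libraries.

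DDX1 fell by a log2 fold change of -1.57 ± 0.35 (SE, edgeR adjusted p 0.00368) and DHX29 by -1.57 ± 0.36 (edgeR adjusted p 0.00442). Both calls were lost without 4SU library A (edgeR adjusted p 0.0561 and 0.0737) and without untreated library B (0.078 and 0.0599). The members called were 0 higher and 2 lower, against 3.85% higher and 3.69% lower of all genes tested. No helicase was higher at an unadjusted p under 0.05 or by DESeq2, and 8 were lower at an unadjusted p under 0.05. Without untreated library A, 9 were lower. The members' median was -0.11 and that of all genes was 0.02. No ribosome biogenesis (13 tested), splicing (9) or export (2) helicase passed the test.

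**Figure D1:**
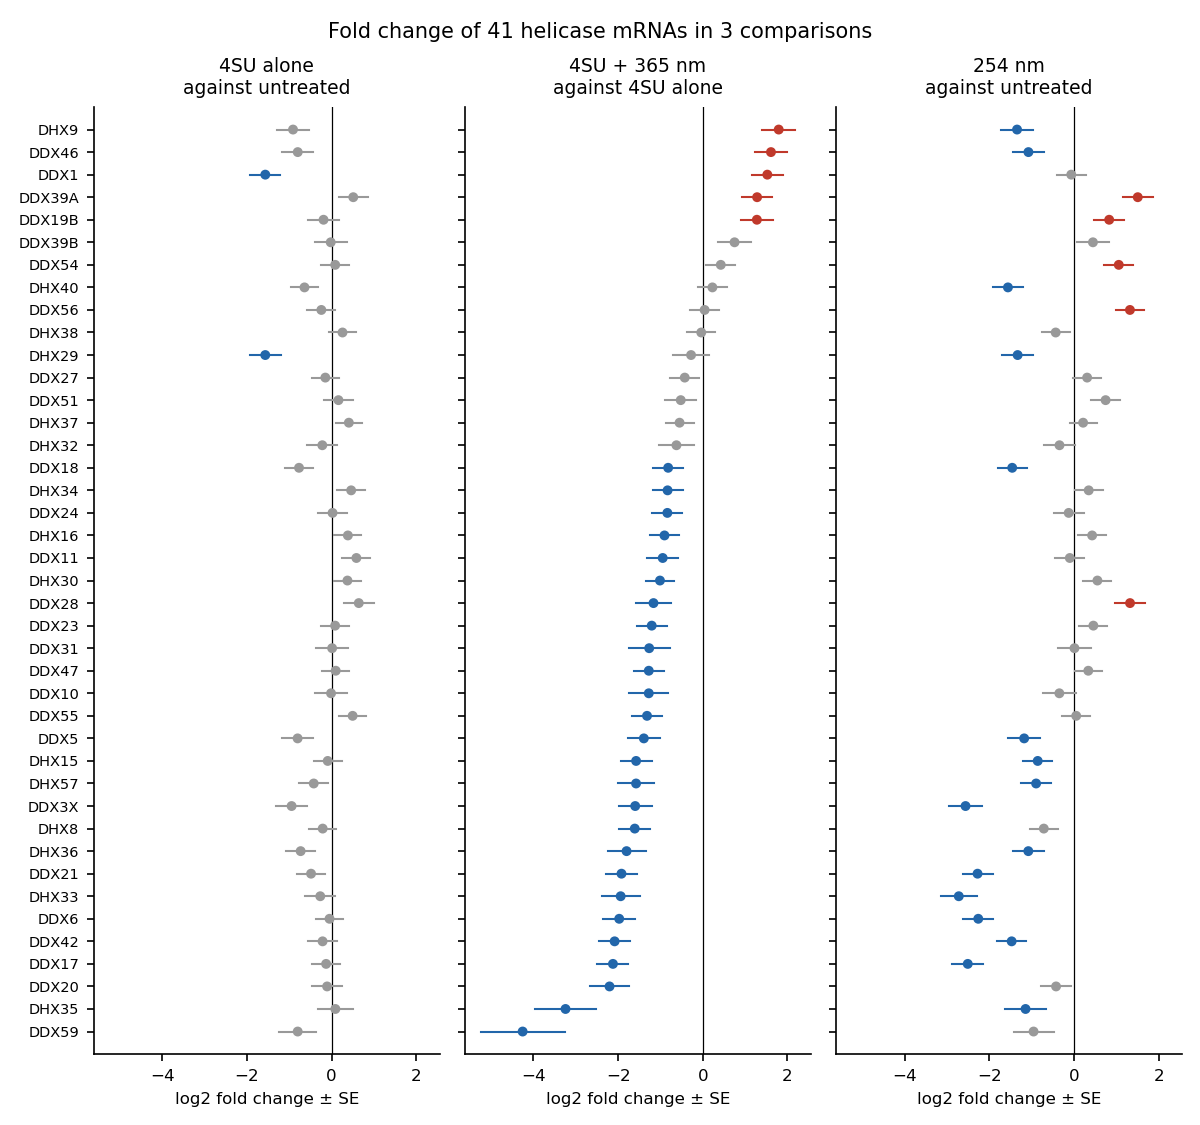
Log2 fold change (x axis, bars ± SE) of 41 helicase mRNAs (y axis) with 4SU alone, with 4SU and 365 nm light, and with 254 nm light, each against its control. Red points rose and blue points fell by the edgeR test, grey points did not pass; 5 rose and 26 fell at 365 nm, and 5 rose and 16 fell at 254 nm.

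The next comparison asked which helicase mRNAs differed after 365 nm light in cells fed 4SU. Relative to other mRNAs, 26 of 41 tested helicases fell and 5 rose, while 33.8% of all genes tested fell and 26.1% rose. The median was -1.01 over the helicases and -0.50 over all genes. Those that rose were DHX9, DDX46, DDX1, DDX39A and DDX19B. For each of the 31 called members the libraries of the compared groups did not overlap. The share of all genes without overlap was not counted, so this adds no support to the calls.

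DHX9 had the largest increase, from 218 and 286 CPM with 4SU alone to 660 and 1084 CPM after 365 nm light. Its log2 fold change was 1.79 ± 0.39 (SE, edgeR adjusted p 0.000157). DDX46, the yeast Prp5 counterpart that helps the U2 snRNP engage the branch point, went from 76.8 and 110.0 CPM to 202 and 367 CPM. DDX46 rose by 1.61 ± 0.37 (edgeR adjusted p 0.00038). DDX1, which had fallen with 4SU alone, stood at 129 and 232 CPM after 365 nm light, near the untreated 132 and 242 CPM.

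The other increases were in helicases of mRNA export. DDX39A went from 174 and 144 CPM to 327 and 445 CPM, a log2 fold change of 1.28 ± 0.35 (SE). DDX19B, which releases mRNA from export factors at the cytoplasmic face of the nuclear pore, went from 16.8 and 15.8 CPM to 35.9 and 42.6 CPM, also 1.28. DDX39B, listed here among splicing helicases, went from 471 and 461 CPM to 623 and 942 CPM and did not pass (0.75). In all of these genes library B of the 365 nm group was higher than library A. Without that library B, 4 of the 5 increases lost their call: DDX46 (edgeR adjusted p 0.0507), DDX39A (0.0593), DDX19B (0.0625) and DDX1 (0.0653). The DHX9 call held, at a log2 fold change of 1.39.

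These increases are relative. With library totals in place of TMM, no helicase rose and 36 fell, while 7.42% of all genes rose and 72.6% fell. DHX9 then had a log2 fold change of -0.09, DDX46 -0.27, DDX1 -0.35, DDX39A -0.60 and DDX19B -0.63, against a median of -2.40 for all genes and -2.93 for the helicases.

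Decreases at 365 nm spanned most roles. Among helicases of translation, storage and decay, 5 of 6 fell, against 33.8% of all genes. DDX6, a decapping activator and P-body component, went from 77.9 and 76.3 CPM to 21.3 and 18.2 CPM, a log2 fold change of -1.97 ± 0.38 (SE, edgeR adjusted p 2.6e-05). DDX3X went from 245 and 340 CPM to 93.2 and 99.98 CPM. DHX36, a G-quadruplex resolvase, went from 27.9 and 31.5 CPM to 6.74 and 9.79 CPM. The exception was DHX29, at 18.2 and 18.3 CPM before and 14.6 and 15.4 CPM after light.

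Of 5 transcription and multifunctional helicases, 3 fell beside the increases of DHX9 and DDX1, while 33.8% of all genes fell and 26.1% rose. DDX17, a paralogue of DDX5 with 68.4% identical coding sequence, went from 278 and 351 CPM to 61.8 and 81.8 CPM, a log2 fold change of -2.12 ± 0.37 (SE, edgeR adjusted p 5.6e-06). DDX5 itself went from 343 and 433 CPM to 135 and 160.1 CPM (-1.39). DDX20 (Gemin3), a component of the SMN complex that assembles snRNPs, went from 29.6 and 35.8 CPM to 10.1 and 4.89 CPM (-2.20). All 3 had both 365 nm libraries below both libraries with 4SU alone.

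Of 9 splicing helicases 6 fell and DDX46 rose, while 33.8% of all genes fell and 26.1% rose. DDX42, a DEAD-box protein of the U2 snRNP, went from 119 and 174 CPM to 25.8 and 41.9 CPM (-2.08). DHX15, which takes apart spent spliceosomes and also works in the nucleolus, went from 132 and 129 CPM to 39.3 and 47.5 CPM (-1.58). DHX8, which releases the spliced mRNA, had -1.61. DHX35, found in the catalytic spliceosome, had 2 and 1 tags in the 365 nm libraries, 3 in all, against 38 and 77 with 4SU alone, 115 in all. This gave a log2 ratio of summed tags of -3.33 with a 95% exact counting interval of -5.63 to -1.75.

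Of 13 ribosome biogenesis helicases 8 fell and none rose, while 33.8% of all genes fell and 26.1% rose. DHX33 went from 41.2 and 45.6 CPM to 12.4 and 10.5 CPM (-1.94), and DDX21, which acts on both RNA polymerase I transcription and pre-rRNA, went from 178 and 191 CPM to 51.7 and 46.1 CPM (-1.92). DDX56 did not pass and stood at 113 and 112 CPM before and 102 and 129 CPM after light. Both mitochondrial helicases fell, DDX28 by a log2 fold change of -1.17 and DHX30 by -1.01. DDX59, which has no role list here, had 1 and 0 tags in the 365 nm libraries against 26 and 56 with 4SU alone, 82 in all, a log2 ratio of -4.43 with a 95% counting interval of -9.75 to -1.91.

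Of the 26 decreases, 14 kept their call when any 1 of the 8 libraries was left out, and 10 kept it under each of the 18 alternatives. Those 10 were DDX59, DHX35, DDX20, DDX17, DDX42, DDX6, DHX33, DDX21, DHX36 and DHX15. Library totals, 1 of the alternatives, test a decrease little, since 72.6% of all genes then fell. Without 365 nm library B, 17 fell. The calls of DDX18, DDX24, DHX16, DHX30, DHX34, DDX10, DDX11 and DDX31, with log2 fold changes of -0.82 to -1.28, were each lost on leaving out 1 of at least 3 libraries, with edgeR adjusted p up to 0.381. DDX28 lost its call without 365 nm library B (edgeR adjusted p 0.347) or 4SU library A (0.104), DDX23 without 365 nm library A (0.0866), and DDX47 and DDX55 without 365 nm library B (0.0695 and 0.0934).

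**Figure D2:**
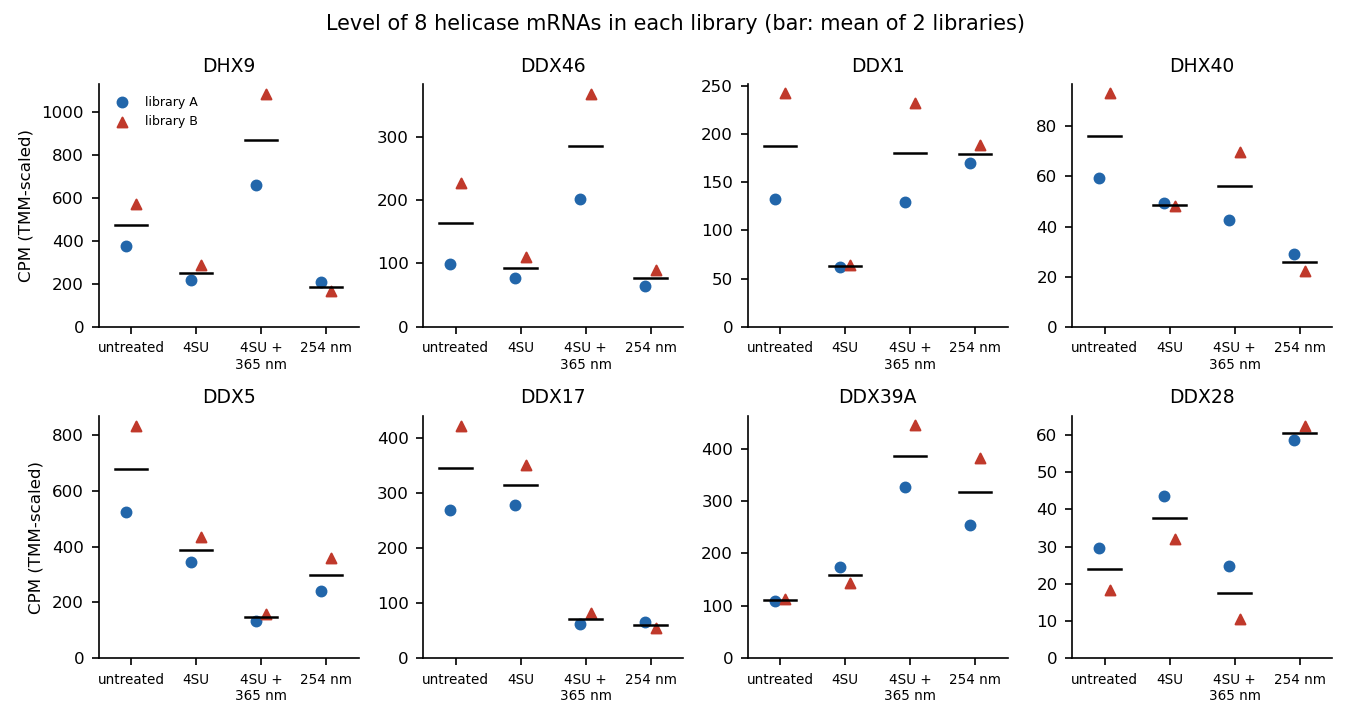
Normalised tags per 1000000, CPM (y axis, linear, from 0) of 8 helicase mRNAs in each library of the 4 groups (x axis), with circles for library A, triangles for library B and a bar at the mean of 2. The means of DHX9 and DDX46 were highest after 4SU with 365 nm and lowest after 254 nm, DDX17 was low in both crosslinked groups, and DDX28 was highest after 254 nm.

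The third comparison asked which helicase mRNAs differed after 254 nm light without 4SU. Of 41 tested, 16 fell and 5 rose, while 28.0% of all genes tested fell and 25.2% rose. The median was -0.34 over the helicases and -0.14 over all genes. The largest decreases were in DHX33, DDX3X, DDX17, DDX21 and DDX6, and increases were in DDX39A, DDX28, DDX56, DDX54 and DDX19B. In every call the libraries of the 2 groups did not overlap, which was again not counted over all genes.

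DDX3X stood at 336 and 793 CPM in untreated libraries A and B and at 94.96 and 96.2 CPM after 254 nm light, a log2 fold change of -2.56 ± 0.39 (SE, edgeR adjusted p 1.5e-06). DDX6 went from 63.9 and 96.1 CPM to 19.5 and 13.7 CPM (-2.26). As at 365 nm, 5 of 6 helicases of translation, storage and decay fell, here against 28.0% of all genes. The other one was DHX34, a factor of nonsense-mediated decay, at 46.0 and 33.0 CPM untreated and 48.2 and 52.7 CPM after light.

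DDX17 went from 269 and 421 CPM to 65.4 and 55.7 CPM (-2.51), and DDX5 from 523 and 833 CPM to 243 and 357 CPM (-1.18). DHX9, which had risen at 365 nm, stood at 375 and 574 CPM untreated and at 208 and 166 CPM after 254 nm light, a log2 fold change of -1.34 ± 0.39 (SE, edgeR adjusted p 0.00327). The DHX9 call was lost without 254 nm library B (edgeR adjusted p 0.0623) or untreated library B (0.052), and the DDX5 call without 254 nm library A (0.147) or untreated library B (0.102).

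Of 9 splicing helicases 4 fell and none rose, while 28.0% of all genes fell and 25.2% rose. They were DDX42 (-1.47), DHX35 (-1.14), DDX46 (-1.08) and DHX15 (-0.86). DDX46 went from 99.4 and 227 CPM to 64.5 and 90.3 CPM. Without untreated library B, DDX46 had a log2 fold change of -0.37 (edgeR adjusted p 0.458) and DHX15 of -0.33 (0.464). Both calls were also lost without 254 nm library A, at 0.172 and 0.368.

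Of 13 ribosome biogenesis helicases, 3 were lower at 254 nm and 2 higher. These shares, 23.1% and 15.4%, lie below the 28.0% and 25.2% of all genes. DHX33 went from 51.6 and 53.2 CPM to 12.7 and 2.93 CPM, the largest decrease among the members (-2.72 ± 0.43, SE). DDX21 went from 184 and 334 CPM to 54.5 and 52.2 CPM (-2.28). DDX56 went from 139.8 and 126 CPM to 271 and 396 CPM (1.32 ± 0.34, SE), and DDX54 from 142 and 98.2 CPM to 267 and 233 CPM (1.06). DDX54 lost its call without untreated library B (edgeR adjusted p 0.0918).

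The mitochondrial helicase DDX28, which takes part in assembly of the mitochondrial ribosome, went from 29.7 and 18.4 CPM to 58.6 and 62.5 CPM, a log2 fold change of 1.32 ± 0.36 (SE). Its partner in that compartment, DHX30, stood at 188 and 160.2 CPM untreated and 261 and 250.0 CPM after light and did not pass (0.55). Both export helicases rose, DDX39A from 110.1 and 113 CPM to 254 and 381 CPM (1.51 ± 0.35, SE) and DDX19B from 20.1 and 17.0 CPM to 33.6 and 32.7 CPM (0.83). The DDX19B call was close to the threshold (edgeR adjusted p 0.046) and was lost in 13 of 18 alternatives, up to an edgeR adjusted p of 0.961.

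With library totals no helicase rose at 254 nm and 25 fell, while 10.1% of all genes rose and 47.1% fell. DDX39A, DDX28, DDX56 and DDX54 then had log2 fold changes of 0.61, 0.46, 0.43 and 0.21, and DDX19B -0.03. Of the 16 decreases with TMM, 8 kept their call without any 1 library, and without untreated library B 8 fell. The calls of DHX29, DHX36, DHX57 and DHX35 were lost without untreated library B (edgeR adjusted p 0.0543, 0.086, 0.148 and 0.0974) and without at least 1 of the 254 nm libraries. DHX33, DDX3X, DDX17, DDX21, DDX6 and DHX40 kept theirs under each of the 18 alternatives.

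Set side by side, 12 helicases fell in both crosslinking comparisons, which have no library in common: DDX3X, DDX5, DDX6, DDX17, DDX18, DDX21, DDX42, DHX15, DHX33, DHX35, DHX36 and DHX57. DDX39A and DDX19B rose in both, though the DDX19B call at 254 nm was close to the threshold and was lost in most alternatives. The share of all genes that fell or rose in both was not counted, so this overlap is not read as a result about helicases. Removing the trend on transcript length kept 12 of the 26 decreases at 365 nm and 6 of the 16 at 254 nm. DDX39A then passed in neither comparison. A further 13 fell past the threshold at 365 nm alone and DHX29 and DHX40 at 254 nm alone. DDX1 rose past it at 365 nm alone, DDX54 and DDX56 at 254 nm alone, and 6 passed neither. With TMM factors and length left in, DHX9 and DDX46 rose at 365 nm and fell at 254 nm, and DDX28 did the reverse. Whether the 2 changes differ was tested as an interaction, the 365 nm change minus the 254 nm change. This value also includes the difference between the 4SU and untreated controls. Since 4SU and wavelength change together, their parts in this difference cannot be told apart.

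By this test the change was higher at 365 nm than at 254 nm in 4 helicases and lower in 7, against 9.99% and 7.09% of all genes. DHX9 had a difference in log2 fold change of 3.14 ± 0.55 (SE, edgeR adjusted p 5.2e-05) and DDX46 of 2.69 ± 0.53 (edgeR adjusted p 0.00029). DDX28 had a difference of -2.49 ± 0.55 (edgeR adjusted p 0.0011). These 3 kept the call under each of the 17 alternatives, among them library totals, removal of the length trend and leaving out each library. For DHX9 the difference ranged from 2.09 with library totals to 3.48 without 365 nm library A. Library totals test the negative DDX28 call little, since 4459 of 13731 genes were then lower in the difference and 494 higher.

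The other differences were less stable. DHX40, a DEAH-box protein of little-known function, stood at 59.4 and 93.2 CPM untreated, 29.1 and 22.5 CPM after 254 nm light, 49.5 and 48.0 CPM with 4SU and 42.7 and 69.9 CPM after 365 nm light. Its difference of 1.79 ± 0.49 (SE) lost the call without 365 nm library B (edgeR adjusted p 0.15) or 254 nm library B (0.0567). DDX1 had 1.59, and lost the call without any of 5 libraries (edgeR adjusted p 0.051 to 0.251). Among those lower at 365 nm, DDX20 had -1.78, DDX23, a helicase of the tri-snRNP, -1.67, DDX47, a ribosome biogenesis helicase, -1.62, DHX30 -1.57, DDX55 -1.37 and DHX16 -1.33. DDX23 went from 121 and 149.8 CPM with 4SU to 47.2 and 69.2 CPM after 365 nm light, and stood at 108 and 149 CPM untreated and 156 and 197 CPM after 254 nm light. DDX47 went from 78.5 and 57.7 CPM with 4SU to 31.4 and 25.2 CPM at 365 nm, and stood at 57.6 and 69.7 CPM untreated and 82.2 and 78.6 CPM at 254 nm. In both genes the 365 nm libraries lay below, and the 254 nm libraries above, their controls. Each of these 6 lost its call on leaving out 1 of at least 3 libraries, with edgeR adjusted p of 0.0509 to 0.285.

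**Figure D3:**
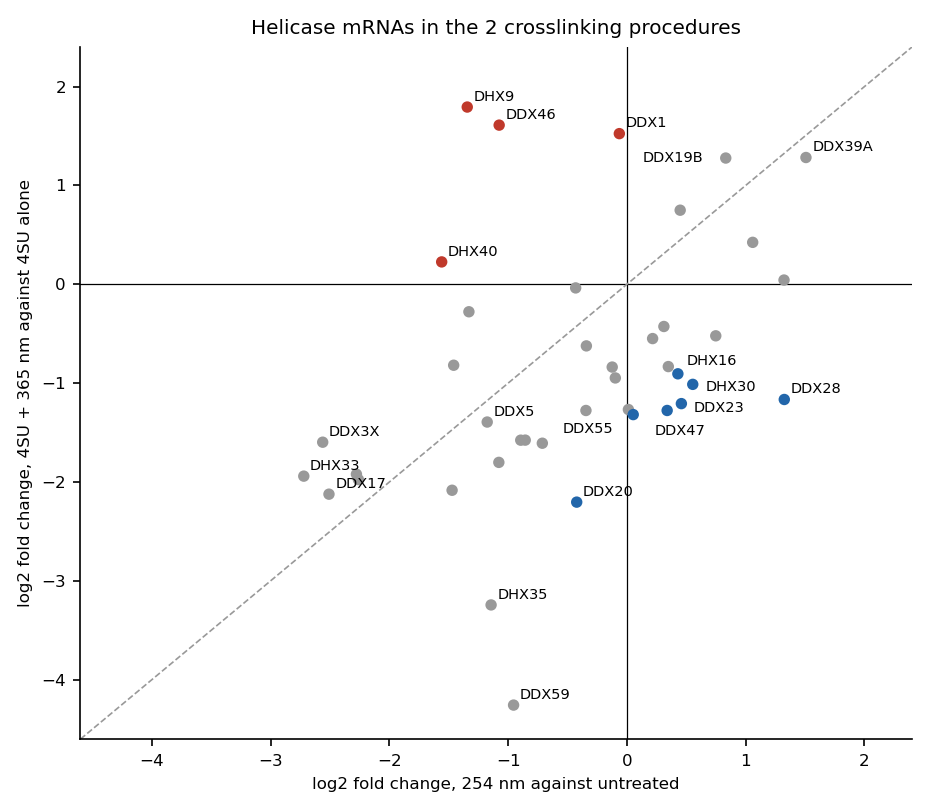
Log2 fold change of 41 helicase mRNAs after 254 nm light (x axis) and after 4SU with 365 nm light (y axis), with a dashed line of equal change. Red and blue points had a positive and a negative difference past the edgeR interaction test; DHX9 and DDX46 lie far above the line and DDX28 far below it.

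Transcript length varied with the changes in the crosslinked libraries, so it was set beside them. Across the 41 helicases Spearman's rho between length and log2 fold change was -0.13 at 365 nm and -0.50 at 254 nm. Over all tested genes it was -0.45 and -0.65. These values describe genes that share the same libraries and carry no p. At 365 nm the increases included the shortest member, DDX39A of 1534 nt, and 1 of the longest, DDX46 of 5695 nt. At 254 nm the members that rose were 1534 to 4404 nt long and those that fell 3019 to 6246 nt.

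When the trend of each library on transcript length was removed, 8 helicases rose and 12 fell at 365 nm, with a median of -0.31. Of all genes 26.2% then rose and 20.9% fell, with a median of -0.21. At 254 nm 9 rose and 7 fell, with a median of 0.09, while 19% of all genes rose and 16.7% fell, with a median of -0.0049. DHX9 then had 2.66 and DDX46 2.68 at 365 nm. DDX39A, at 0.67 (edgeR adjusted p 0.0592) and 0.55 (0.138), passed in neither comparison. At 365 nm DDX3X (-0.56, edgeR adjusted p 0.144), DDX5 (-0.63, 0.0952), DHX57 (-0.62, 0.186) and DHX8 (-0.76, 0.0538) lost their calls. At 254 nm DHX9 (-0.45, edgeR adjusted p 0.247), DDX46 (0.22, 0.625) and DDX5 (-0.47, 0.236) no longer passed, and DDX3X did (-1.33, 0.00178). DDX54, a nucleolar helicase of 4404 nt, had 1.94 at 254 nm with the trend removed, against 1.06.

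**Figure D4:**
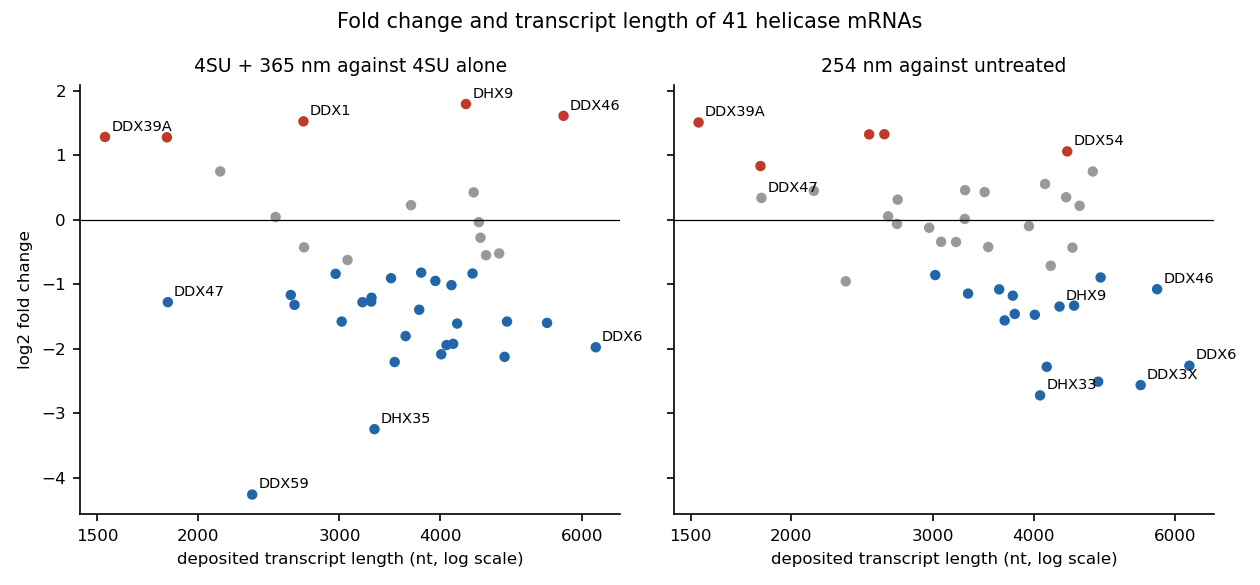
Log2 fold change (y axis) against deposited transcript length in nt (x axis, log scale) for 41 helicase mRNAs at 365 nm and at 254 nm. Red points rose, blue points fell and grey points did not pass the edgeR test; Spearman's rho was -0.13 on the left and -0.50 on the right.

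By motif II, 15 of 22 tested DEAD members fell and 3 rose at 365 nm, and 6 of 9 DEAH members fell and none rose. At 254 nm 7 of the 22 DEAD members fell and 4 rose, and 4 of the 9 DEAH members fell. Over all tested helicases 63.4% fell and 12.2% rose at 365 nm, and 39.0% fell and 12.2% rose at 254 nm. Over all genes 33.8% fell and 26.1% rose at 365 nm, and 28.0% fell and 25.2% rose at 254 nm. The motif classes were not tested against each other. The 2 DEIH members, DHX9 and DHX36, moved in opposite directions at 365 nm and both fell at 254 nm. The 2 DECD members had medians of 1.02 and 0.98 in the 2 comparisons, with DDX39A past the test in both and DDX39B in neither.

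The pattern of DDX5 over the 8 libraries was set against that of every tested gene, by Pearson's r of log2 CPM. The most alike were RNF128 (0.992), RALGAPB (0.991), MYCBP2 (0.989), RTF1 (0.987) and EPHB1 (0.987). The most alike helicase was DHX57, with 0.976 at rank 26, followed by DHX15 with 0.930 and DHX36 with 0.925. DDX17, its paralogue, had 0.780, and DDX39A had the lowest value among the helicases, -0.82.

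In the siRNA pair each condition has 1 library, so there is no replicate check and no test. ELAVL1 had a log2 ratio of HuR siRNA over GFP siRNA of -1.54, with a 95% exact counting interval of -1.67 to -1.41. Intervals here cover counting error only. Of 46 helicases with at least 10 tags over both libraries, 1 was lower by more than 2-fold and none was higher. Past 2-fold were 6.37% of all genes lower and 4.4% higher. The median was -0.14 over the helicases and -0.002 over all genes. The intervals of 22 helicases lay below 0 and those of 16 above it, against 28.7% and 26.9% of all genes.

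DHX40 was the helicase past 2-fold. It had 1838 tags with the GFP siRNA and 780 with the HuR siRNA, or 204.8 and 89.4 CPM, a log2 ratio of -1.19 (interval -1.32 to -1.08). Next came DDX60L with 43 and 21 tags (-0.93, interval -1.82 to -0.21), DHX33 with 608 and 316 tags (-0.90, interval -1.11 to -0.71) and DDX60 with 51 and 26 tags (-0.88, interval -1.67 to -0.22). DDX21 had 5117 and 2824 tags (-0.82) and DDX5 had 8467 and 5391 tags (-0.61). At the other end DHX37, which works on the small ribosomal subunit, had 527 and 897 tags (0.80, interval 0.65 to 0.97). DDX11, a DNA helicase of sister chromatid cohesion, had 312 and 516 tags (0.76), DDX51 had 273 and 427 (0.68) and DHX30 had 1826 and 2802 (0.66).

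Among roles, all 5 transcription and multifunctional helicases had intervals below 0, with a median of -0.40. Of 7 helicases of translation, storage and decay, 5 lay below 0 and 1 above it. Splicing helicases lay mostly on the other side, with 6 of 9 above 0 and DHX15 below. Ribosome biogenesis helicases were divided, with 6 below and 5 above 0 of 13. Both mitochondrial helicases, DDX28 (0.48) and DHX30, lay above 0. These counts stand beside 28.7% of all genes with intervals below 0 and 26.9% above it. Intervals narrow as tags rise, so genes with many tags clear 0 more often. Spearman's rho between transcript length and the ratio was -0.13 over the 46 helicases and -0.30 over all genes.

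**Figure D5:**
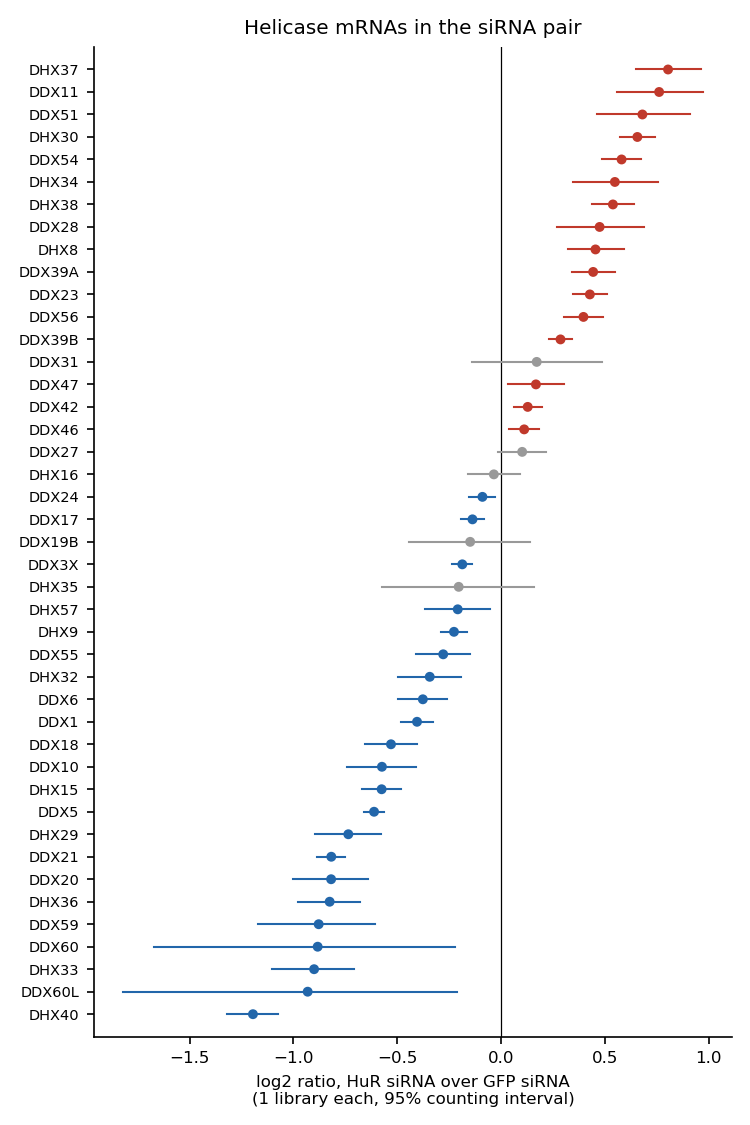
Log2 ratio of HuR siRNA over GFP siRNA (x axis) for the 43 helicase mRNAs with at least 50 tags over both libraries (y axis), 1 library each, with 95% exact counting intervals. Blue intervals lie below 0, red ones above 0 and grey ones span 0; DHX40 is lowest at -1.19 and DHX37 highest at 0.80.

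HuR is known to bind uridine-rich stretches, so 3′ UTRs were searched for TTTNTTT on the transcript strand, with overlapping matches counted. Only 29 of 49 members (59.2%) had a GENCODE 29 transcript within 5% of the deposited length, so no statement over the whole family can be made from it. Of these 29, 16 held the motif, as did 65.5% of 9851 3′ UTRs of all matched transcripts. The median 3′ UTR was 570 nt in the members and 944 nt in all. DDX6 held 54 matches in 4339 nt, DDX17 held 27 in 2495 nt and DHX40 held 1 in 1173 nt. DHX37 held none. A match describes the letters only and is not a binding site. One 3′ UTR window each is shown for the lowest member of the siRNA pair and for the members with the most matches, with a match in capitals.
DHX40: gtatgtgaccaTTTATTTcagaaggctga
DDX6: gtttttcatctTTTATTTtggaactatga
DDX17: actgtctttccTTTTTTTttcctcttcgc

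The siRNA log2 ratio of these members was -1.19 for DHX40, -0.38 for DDX6 and -0.14 for DDX17. Over the 27 matched members with at least 50 tags, the median ratio was -0.23 in the 15 with a match and 0.07 in the 12 without. The median 3′ UTR was 1173 nt in the former and 421 nt in the latter, and the part of UTR length in the difference was not tested.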

How the data were processed

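Polyadenylated RNA of HEK293 cells was sequenced in 10 libraries. The authors deposited, per transcript, expected counts of tags (fractional where a tag was split between transcripts), the transcript length and a length-scaled expression value; per the file headers the counts sum to the library total, and they are not normalised. Only values above 0 are listed. The sources used here do not give the aligner, genome build or annotation release, so no positions are printed. The deposited counts were rounded to whole tags, and the expression values were not used. Accessions were named from a RefSeq table or GENCODE 29, and transcripts of 1 gene were summed.

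One quasi-likelihood model in edgeR 4.0.16 (R 4.3.3) held the 8 replicated libraries, after filterByExpr, with TMM factors and group means. Its spread per gene leaned on the trend over all genes, with 40 prior and 4 residual degrees of freedom. P-values were two-sided and adjusted by Benjamini-Hochberg over 13731 genes, with 0.05 as threshold, and SE is the size of the fold change over the square root of F. The script was tested on simulated data. The alternatives tried were library totals, RLE or upper-quartile factors, DESeq2 1.42.0, no filter, a filter of 5 CPM in 2 libraries, the compared groups alone, a replicate block, an adjusted p of 0.01, transcripts as deposited, removal of the length trend by lowess (span 0.3), members without split tags, and leaving out each library. The siRNA ratio used TMM and a prior count of 2.

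The members and all gene lists were chosen with earlier results of these data known. Values per library are given for the 5 largest increases and decreases past the threshold in each comparison, the 5 highest untreated levels, the 4 highest and 4 lowest siRNA ratios among members with at least 50 tags, and leading members of each role. Further members, such as DHX36, DDX56 and DHX34, were added after their values were seen.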

Additional observations from a re-analysis of the deposited data

Results flagged for a closer look

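For 11 helicases the change with 4SU and 365 nm light differed from the change with 254 nm light by the edgeR interaction test. By the same test 9.99% of all genes were higher and 7.09% lower. Only DHX9, DDX46 and DDX28 kept this call in every alternative fit. The difference in log2 fold change was 3.14 for DHX9, 2.69 for DDX46, 1.79 for DHX40 and 1.59 for DDX1. It was -2.49 for DDX28, -1.78 for DDX20, -1.67 for DDX23, -1.62 for DDX47, -1.57 for DHX30, -1.37 for DDX55 and -1.33 for DHX16. With TMM factors DHX9, DDX46 and DDX28 passed the test in opposite directions in the 2 procedures. The following settings changed this for at least 1 of the 2 procedures. With library totals DHX9 had -0.093 and DDX46 -0.27 at 365 nm. With the length trend removed DHX9 had -0.45 (edgeR adjusted p 0.247) and DDX46 0.22 (0.625) at 254 nm, and DDX28 had -0.78 (0.0992) at 365 nm. Without untreated library B, DDX46 had -0.37 (0.458) at 254 nm. Tags of DDX46, DHX40, DDX23, DDX55 and DHX16 were partly split between transcripts. In the 365 nm libraries DHX9 had 660 and 1084 CPM and DDX46 had 202 and 367 CPM, so their spread was wide, and library B was the higher in both.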

How the results depend on the processing

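Alternatives were run for the counts of helicases called and for each named value. Scaled by library totals alone, 0 helicases rose at 365 nm and 0 at 254 nm, 25 fell at 254 nm, and the difference between procedures was higher for 2 and lower for 24. Of 13731 genes, 1384 then rose and 6462 fell at 254 nm. Their difference was higher for 494 and lower for 4459, so the shift was not particular to helicases. The fold changes of DHX9 (-0.093), DDX46 (-0.27), DDX1 (-0.35), DDX39A (-0.60) and DDX19B (-0.63) at 365 nm and of DDX19B at 254 nm (-0.029) changed sign on that scale. With the length trend removed, 8 rose and 12 fell at 365 nm, and 9 rose and 7 fell at 254 nm. Of all genes 26.2% then rose and 20.9% fell at 365 nm, and 19% rose and 16.7% fell at 254 nm. With RLE factors 17 fell at 365 nm and 4 were lower in the difference, where DESeq2 also gave 4. Of 13731 genes, RLE factors gave 3604 lower at 365 nm and 607 lower in the difference. DESeq2 gave 440 of 23036 lower in the difference. At an adjusted p under 0.01, which was not counted over all genes, 17 fell at 365 nm and 1 was lower in the difference. Without members whose tags were split, 14 fell at 365 nm, 9 fell at 254 nm, and 2 were higher and 4 lower in the difference. In the siRNA pair library totals put 2 helicases past 2-fold lower, and a prior count of 0.5 or a minimum of 50 tags left 1. Upper-quartile factors, both other expression filters, the compared groups alone and transcripts as deposited kept each count within 1.5 times.

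Leaving out each library in turn gave 0 to 9 lower with 4SU alone, 1 to 5 higher and 17 to 26 lower at 365 nm, and 3 to 6 higher and 8 to 17 lower at 254 nm. The difference then had 2 to 6 higher and 2 to 9 lower. A group left with 1 library is assumed to vary like the others. The counts over all genes also moved with the library left out and are not given here. The letters A and B were not taken as pairs, since the A minus B deviations of the groups correlated at -0.08 to 0.35. In the fit with a replicate block on these letters, 0 rose and 2 fell with 4SU, 5 rose and 26 fell at 365 nm, 6 rose and 17 fell at 254 nm, and 4 were higher and 10 lower in the difference. Of 13731 genes, 3703 rose and 4904 fell at 365 nm in that fit, and 3686 rose and 4085 fell at 254 nm. In the difference 1554 genes were higher and 1353 lower. A floor of 3 tags equals 0.968 to 1.34 tags per 1000000 in the 8 libraries, so the 8 untested helicases could not be compared at this depth.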

Other observations

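Helicases outside the DDX and DHX names and the partner proteins of the family were counted in the same comparisons, on lists chosen with earlier results of these data known. Of 19 tested helicases with other symbols, 12 fell and 3 rose at 365 nm, 10 fell and 1 rose at 254 nm, and 3 fell with 4SU alone. Of all genes 33.8% fell and 26.1% rose at 365 nm, 28.0% fell and 25.2% rose at 254 nm, and 3.69% fell with 4SU alone, and the counts of each list here are read against these shares. SNRNP200, the helicase that unwinds the U4/U6 duplex in the spliceosome, had a log2 fold change of 2.35 ± 0.41 (SE, edgeR adjusted p 6.03e-06) at 365 nm and -0.92 at 254 nm, or 3.52 and 0.52 with the trend on transcript length removed. Its difference between the 2 was 3.27, or 3.01 with the trend removed. EIF4A1, the helicase of the cap-binding complex, had 0.76 and 1.04, and with the trend removed 0.50 and 0.40. Its 365 nm value did not pass (edgeR adjusted p 0.0609). The exon junction core EIF4A3 had -0.91 and 0.67, and with the trend removed -1.33 and -0.11. Its 254 nm value did not pass (edgeR adjusted p 0.0994). DICER1, which cuts miRNA precursors, had -2.61 at 254 nm and -0.94 with the trend removed.

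Of 12 G-patch proteins, which activate DEAH-box helicases, 6 fell and none rose at 365 nm, and 4 fell and 4 rose at 254 nm. NKRF, a nucleolar G-patch protein, had -2.57 and GPATCH8 -2.26 at 365 nm, or -1.96 and -1.11 with the trend removed. Of 15 proteins with an MIF4G fold or other eIF4A and DDX6 partners, 7 fell and 2 rose at 365 nm, and 9 fell at 254 nm. EIF4G1, the scaffold that holds eIF4A, had 1.70 at 365 nm, or 2.76 with the trend removed, and a difference of 2.24 between procedures. Of 12 exon junction and export factors, 5 rose and 2 fell at 365 nm, and 6 rose and 2 fell at 254 nm. ALYREF, the export adaptor that DDX39B loads, had 2.03 and 0.72, or 0.82 and -0.65 with the trend removed. The 0.72 at 254 nm did not pass (edgeR adjusted p 0.0634). THOC2, the large subunit of the THO complex, had -2.50 at 254 nm, or -1.23 with the trend removed.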
